A study of Mus musculus with 6 samples.

Results

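The mRNAs of 10 mitochondrial chaperones and proteases were followed in MLE12 cells whose citrate handling in the mitochondria had been reduced. The 10 genes were chosen by name from the 54532 mouse genes of the deposited table, and all 10 were found there once. They are the chaperones *Hspd1* (HSP60), *Hspe1* (HSP10), *Hspa9* (mortalin) and *Trap1*, and the proteases or protease subunits *Lonp1*, *Clpp*, *Clpx*, *Afg3l2*, *Yme1l1* and *Htra2*. MLE12 is a mouse lung epithelial line immortalized with a viral large T antigen, and the labels give its strain as C57BL/6J.

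All cells were infected with lentivirus. The control cells received an empty vector (Ctrl shRNA, 3 libraries) at a multiplicity of infection of 50, and the knockdown cells received Idh3α shRNA and Slc25a1 shRNA viruses together (3 libraries), each at 50, so that the total virus added also differed between the groups. *Idh3α* encodes a subunit of the isocitrate dehydrogenase of the citric acid cycle and *Slc25a1* the carrier that moves citrate out of mitochondria. The virus was washed off after 16 h, and RNA was taken after a further 80 h. Nothing in the labels says whether the 3 libraries of a group came from separate cultures, so the p-values measure only the spread between these libraries, which may be technical.

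Most mitochondrial proteins are made in the cytosol and threaded into the matrix unfolded. Mortalin pulls them in, and HSP60 with its lid HSP10 encloses and folds them, while the AAA+ proteases of the matrix and the inner membrane degrade what fails to fold or assemble. When unfolded protein builds up in mitochondria, cells can raise the mRNAs of this machinery, a program named the mitochondrial unfolded protein response. The comparison asks whether these mRNAs differed between knockdown and control cells.

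*Hspd1* (ENSMUSG00000025980) and *Hspe1* (ENSMUSG00000073676) lie head to head on chromosome 1. In the deposited coordinates, which are those of GRCm38, *Hspd1* ran from 55077835 to 55088243 on the minus strand and *Hspe1* from 55088132 to 55091307 on the plus strand. The transcribed strands therefore overlapped, with 112 exonic bases held by both genes, where reads cannot be assigned unless strand was used. Between the RefSeq start of *Hspe1* and the second RefSeq start of *Hspd1* lay a match to a heat shock element, the binding sequence of the heat shock factors. It is shown because the partners of the HSP60 to HSP10 chamber share it. The stretch below is from RefSeq on GRCm38.p6, chr1:55088053-55088082, plus strand, with the element of 18 bases in capitals. By the deposited coordinates it lay within the span of the *Hspd1* gene.
Hspe1 and Hspd1 shared element: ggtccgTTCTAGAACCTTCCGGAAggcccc

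The capitals hold 3 overlapping inverted pairs of the element's core, TTCNNGAA from 89 bases before the RefSeq start of *Hspe1*, GAANNTTC from 84 bases before it and TTCNNGAA again from 79 bases before it. Promoter windows of 300 bases (250 before and 50 after each RefSeq start) were searched for 7 of the 10 genes, in 8 windows. *Htra2*, *Hspa9* and *Afg3l2* were not searched. Of all 32851 windows in the table, 7.86% held GAANNTTC, 8.52% held TTCNNGAA and 1.32% held both. Among the genes searched, *Hspd1* and *Hspe1* held both forms, which overlapped each other, and *Clpp* held TTCNNGAA alone, after its start. For *Hspd1* the matches were in the window of its second RefSeq start, and its other window held neither form. Each sequence was searched on both strands.

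Other sequences were searched in the same windows. The ATF4 and CHOP composite TGATGCAA was in none of the genes searched and in 0.895% of all windows, and its looser form TGATGNAAN was also in none of them and in 3.95% of all. The palindromic NRF1 sequence was in none of them and in 0.971% of all. The ETS sequence CCGGAAG was in *Clpp*, *Hspd1*, *Hspe1* and *Yme1l1* and in 8.86% of all windows. The stretch shown above, which lies in windows of both *Hspd1* and *Hspe1*, holds it in bases that overlap the heat shock element. CCAAT was in *Clpx*, *Hspd1* and *Yme1l1* and in 37.4% of all. TGACGT was in *Lonp1* and *Trap1* and in 7.51% of all, and the full TGACGTCA, which contains it, in *Trap1* and in 1.79% of all. These matches describe letters in a window and not binding.

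The total count per library ran from 27273502 to 28535653, and the 10 genes took from 0.119% to 0.155% of it. The lowest count of any of the 10 genes in any library was 616 (*Clpp*) and the highest 10998 (*Hspd1*). Ctrl shRNA replicate 2 stood apart from the other 5 libraries. It detected 16681 genes against 19902 to 23147, the top 100 genes held 27.2% of all reads counted there (12.6% to 12.9% elsewhere), and genes under 1 kb held 10.2% (2.46% to 3.77% elsewhere). Its share of mitochondrially encoded transcripts was 6.49% against 1.57% to 1.80%. The edgeR tests of the 10 genes are therefore given with and without it. Levels below are CPM (counts scaled to the library size after TMM normalization) unless FPKM is named. A gene was called when its Benjamini-Hochberg adjusted p was under 0.05 in edgeR's quasi-likelihood test over all 15307 genes tested.

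For both targeted mRNAs every knockdown library was below every control. *Idh3α* was at 79.8, 137 and 93.0 CPM in the controls against 55.5 to 58.5 CPM in the knockdown. *Slc25a1* was at 98.7 to 108 CPM in the controls against 63.0 to 69.6 CPM in the knockdown. The log2 fold changes were -0.85 and -0.62 (adjusted p = 0.254 and 0.104 in edgeR), and -0.60 and -0.66 without Ctrl shRNA replicate 2 (adjusted p = 0.0142 and 0.00649). Lung epithelial markers differed widely in level in both groups. *Nkx2-1*, *Krt8* and *Cdh1* were at 68.4 CPM or more in every library, whereas *Sftpd* was at 0 in all and 4 of the 10 markers were under 1 CPM throughout. The 10 summed to 726 to 770 CPM in the controls and 651 to 706 CPM in the knockdown. *Sftpc*, the surfactant protein that defines alveolar type II cells, was lower in the knockdown, at 44.1, 97.3 and 50.9 CPM against 35.9, 28.5 and 27.2 CPM (log2 fold change -1.07, adjusted p = 0.315 in edgeR, and -0.65, adjusted p = 0.0438, without Ctrl shRNA replicate 2), and *Sftpb* was highest of the markers tested (0.15, adjusted p = 0.899, and -0.22, adjusted p = 0.709, without that control). EdgeR called 0 of the 6 markers tested with all libraries. Without that control *Sftpc* was the 1 call, of 8 tested, where 0.675% of all genes were called lower. Quality weights called 0 higher and 2 lower (*Sftpc* and *Nkx2-1*), against 8.67% and 6.34% of all genes. DESeq2 without that control called the same markers, against 3.93% and 2.65%. Of the 6, 1 was higher and 3 were lower in the knockdown with no overlap of the groups, with or without that control, against 14.7% and 10.7% of all genes tested with all libraries, and 20.3% and 17.3% without it. The part of these differences in the results below was not tested. Markers of leukocytes, endothelium and fibroblasts summed to 22.2 to 25.0 CPM in the controls and 19.7 to 26.3 CPM in the knockdown, nearly all of it *Col1a1* (log2 fold change -0.07, adjusted p = 0.821, and -0.10, adjusted p = 0.733, without Ctrl shRNA replicate 2). *Ptprc* and *Adgre1* were at 0, *Pecam1* was under 1 CPM (0.64, adjusted p = 0.767, and 0.13, adjusted p = 0.933, without it), and *Cd68*, a macrophage marker, was at 1.65 to 1.92 CPM in the controls and 2.34 to 2.73 CPM in the knockdown. *Cd68* was the 1 marker of the 3 tested whose groups did not overlap, with a log2 fold change of 0.51 (unadjusted p = 0.0435, adjusted p = 0.352 in edgeR) and 0.55 without Ctrl shRNA replicate 2 (adjusted p = 0.204), and no test called it. The part of this difference in the results was not tested.

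The import and folding chaperones *Hspa9* and *Hspd1* were the genes of the 10 with the highest log2 fold changes, each about 1.3-fold higher in the knockdown cells. *Hspa9* encodes the motor that draws proteins through the inner membrane and also serves the assembly of iron-sulfur clusters. Its level was 262, 239 and 253 CPM in Ctrl shRNA replicates 1, 2 and 3, against 334, 343 and 320 CPM in knockdown replicates 1, 2 and 3. The groups did not overlap, and the lowest knockdown library was above the highest control. The mean went from 251 ± 11.6 CPM to 333 ± 11.7 CPM (SD, n = 3 each). The log2 fold change was 0.40 (standard error 0.08, adjusted p = 0.209 in edgeR) with all libraries, which missed the threshold, and 0.36 (standard error 0.07, adjusted p = 0.0414) without Ctrl shRNA replicate 2, which passed it.

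*Hspd1* encodes the barrel of the folding chamber. It was at 256, 239 and 270 CPM across the controls against 331, 362 and 323 CPM across the knockdown libraries. Here too the groups did not overlap. The mean went from 255 ± 15.5 CPM to 339 ± 20.9 CPM (SD, n = 3 each), and the log2 fold change was 0.41 (standard error 0.09, adjusted p = 0.245 in edgeR). Without Ctrl shRNA replicate 2 it was 0.36 (standard error 0.08, adjusted p = 0.0615), still over the threshold. One pseudogene, *Hspd1-ps3*, held reads that may be shared with it, at 2.99% of the *Hspd1* counts over all libraries, and the other pseudogene rows of *Hspd1* were at 0.

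Whether the genes were called depended on the test. DESeq2 with all libraries gave adjusted p = 0.00398 for *Hspa9* and 0.0229 for *Hspd1*. Limma voom with sample quality weights, which gave Ctrl shRNA replicate 2 a weight of 0.101, gave 0.00418 and 0.0120. Limma on log2(FPKM + 1) called neither, with adjusted p = 0.211 and 0.256. In bulk RNA such as this, fewer cells of a type and less RNA per cell cannot be told apart.

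**Figure D1:**
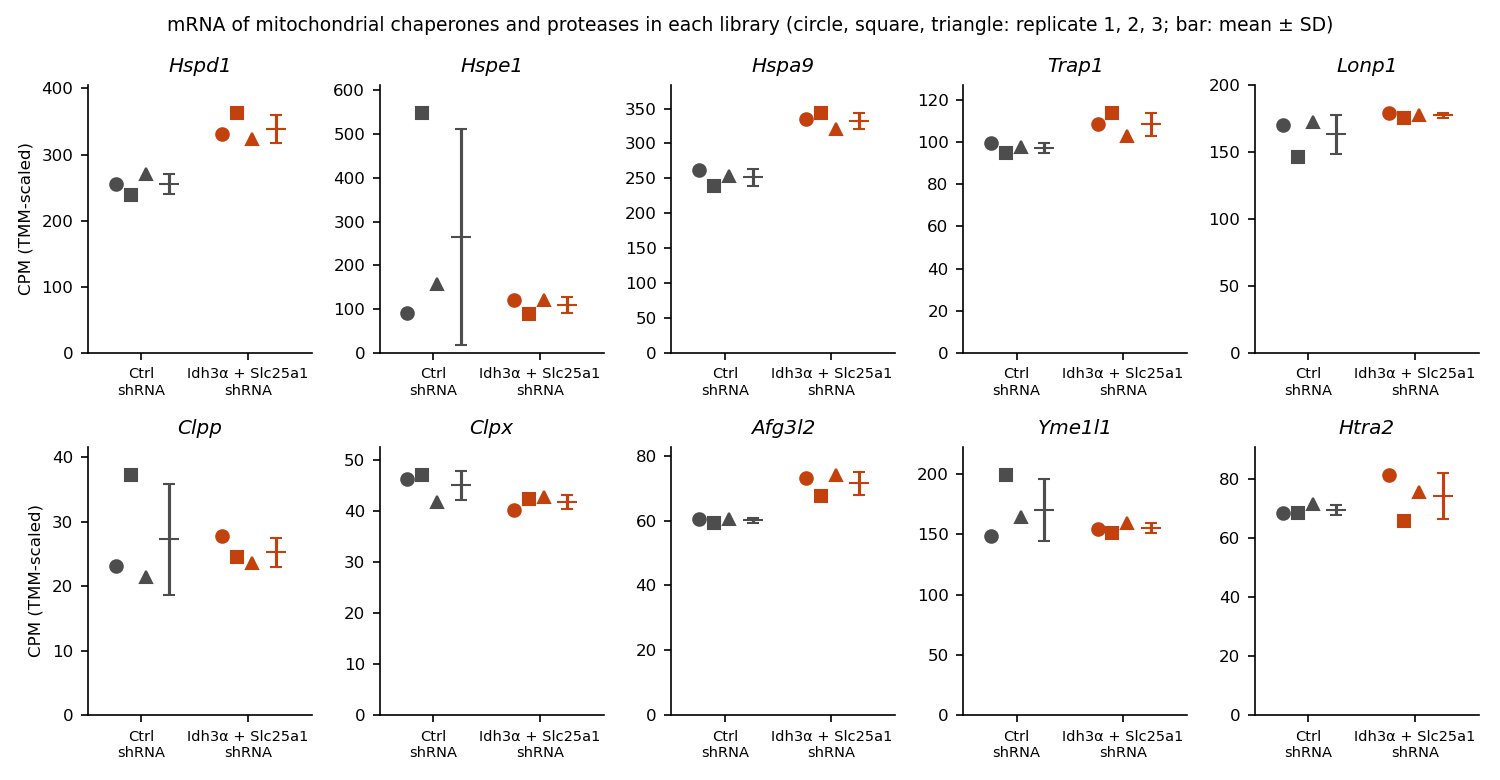
TMM-scaled CPM of the 10 genes in each library, with 1 panel per gene and each vertical axis starting at 0. Grey points are Ctrl shRNA libraries and orange points are Idh3α shRNA + Slc25a1 shRNA libraries, and bars are mean ± SD (n = 3). *Hspd1*, *Hspa9*, *Trap1*, *Lonp1* and *Afg3l2* separate by group, and the square of Ctrl shRNA replicate 2 is far above the other points for *Hspe1* (548 CPM) and *Clpp* (37.2 CPM).

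*Hspe1*, whose product caps the HSP60 barrel, had 1 control library far from the other 5. It was at 90.0, 548 and 157 CPM across the controls against 121, 88.3 and 121 CPM across the knockdown libraries. The groups overlapped, and Ctrl shRNA replicate 2 was 4.44 times the mean of the other controls. The log2 fold change was -1.27 (standard error 0.65, adjusted p = 0.382 in edgeR) with that library and -0.17 (standard error 0.21, adjusted p = 0.690) without it. Even without it the remaining controls, at 90.0 and 157 CPM, lay on either side of all but 1 knockdown library. The rows of 3 *Hspe1* pseudogenes held between 4 and 10 counts each in total.

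*Trap1*, an HSP90 family chaperone of the matrix, differed less. It was at 99.7, 95.1 and 97.6 CPM across the controls against 108, 114 and 103 CPM across the knockdown libraries. The groups did not overlap, but the log2 fold change was only 0.16 (standard error 0.07, adjusted p = 0.360 in edgeR) and 0.13 (adjusted p = 0.335) without Ctrl shRNA replicate 2. *Trap1* shares 54 exonic bases with *Dnase1*, which had a mean of 86.8 counts against 2918 for *Trap1*.

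Among the proteases, *Afg3l2* had the highest log2 fold change with all libraries. It encodes a subunit of the m-AAA protease, which faces the matrix from the inner membrane. It was at 60.6, 59.3 and 60.4 CPM across the controls against 73.3, 67.5 and 73.9 CPM across the knockdown libraries. The groups did not overlap, and the controls lay close together (SD 0.730 CPM). The log2 fold change was 0.25 (standard error 0.07, adjusted p = 0.302 in edgeR), and 0.23 (adjusted p = 0.142) without Ctrl shRNA replicate 2. Of the fits run, limma voom with sample quality weights was the single one to call it (adjusted p = 0.0208), while DESeq2 gave 0.145.

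*Yme1l1* encodes the i-AAA protease, which faces the space between the membranes. It was at 148, 199 and 164 CPM across the controls against 155, 152 and 160 CPM across the knockdown libraries. The groups overlapped, and 1 control, replicate 2, was above every other library. The log2 fold change was -0.14 (standard error 0.12, adjusted p = 0.569 in edgeR) and -0.02 (standard error 0.07, adjusted p = 0.905) without that control, and -0.22 (adjusted p = 0.275) without Ctrl shRNA replicate 1.

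*Lonp1* encodes the LON protease of the matrix, which removes oxidized proteins and acts on mitochondrial DNA factors. It was at 170, 146 and 172 CPM across the controls against 179, 175 and 177 CPM across the knockdown libraries. The groups did not overlap, but their separation from Ctrl shRNA replicates 1 and 3 was a few CPM. In edgeR its log2 fold change was 0.12 (adjusted p = 0.495) and 0.04 (standard error 0.06, adjusted p = 0.764) without Ctrl shRNA replicate 2.

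The subunits of the other matrix protease, ClpXP, gave no call. *Clpp*, the proteolytic core, was at 23.2, 37.2 and 21.5 CPM across the controls against 27.8, 24.5 and 23.6 CPM across the knockdown libraries. Its log2 fold change was -0.11 (standard error 0.22, adjusted p = 0.825 in edgeR) and changed sign to 0.17 (standard error 0.10, adjusted p = 0.379) without Ctrl shRNA replicate 2, which was 1.67 times the mean of the other controls. Without each of the other libraries it stayed negative, from -0.27 (Ctrl shRNA replicate 3) to -0.056 (knockdown replicate 3). *Clpx*, the unfolding ring, was at 46.3, 47.0 and 41.8 CPM across the controls against 40.3, 42.4 and 42.8 CPM across the knockdown libraries. Its groups overlapped. The log2 fold change was -0.11 (standard error 0.08, adjusted p = 0.505 in edgeR) and -0.09 (adjusted p = 0.590) without that control, and -0.17 (adjusted p = 0.387) without Ctrl shRNA replicate 3.

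*Htra2*, a serine protease between the membranes that can promote cell death when released, was at 68.5, 68.3 and 71.4 CPM across the controls against 81.1, 65.8 and 75.6 CPM across the knockdown libraries. The knockdown libraries lay on both sides of the controls. EdgeR put its log2 fold change at 0.10 (standard error 0.09, adjusted p = 0.613) and 0.07 (adjusted p = 0.691) without Ctrl shRNA replicate 2. It was 0.03 (adjusted p = 0.931) without knockdown replicate 1 and 0.18 (adjusted p = 0.675) without knockdown replicate 2. Its value is uncertain for another reason. Of its 2946 exonic bases, 753 are shared with *Aup1* (mean count 2458) and 535 with *Loxl3* (mean count 782.5), both on the other strand, and whether the counting used strand is not stated.

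Counted together, 0 of the 10 genes were called higher and 0 lower by edgeR with all libraries, where 0.0588% of all genes tested were called higher and 0.00653% lower. At an unadjusted p under 0.05 there were 3 higher (*Hspa9*, *Hspd1* and *Afg3l2*) and 0 lower, against 7.47% and 6.65% of all genes. Without Ctrl shRNA replicate 2, 1 was called higher (*Hspa9*) against 1.11% of all genes, and 0 lower against 0.675%. DESeq2 called 2 higher (*Hspa9* and *Hspd1*) against 1.55% of the genes it gave an adjusted p, and limma voom with sample quality weights called 3 higher (with *Afg3l2*) against 8.67%. These 2 tests called 0 lower, against 0.958% and 6.34%. DESeq2 without Ctrl shRNA replicate 2 called *Hspa9* and *Hspd1* higher, against 3.93% of the genes it gave an adjusted p, and 0 lower, against 2.65%.

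The groups did not overlap, with the knockdown higher, for 5 of the 10 genes (*Hspd1*, *Hspa9*, *Trap1*, *Lonp1* and *Afg3l2*), against 14.7% of all genes tested, and with the knockdown lower for 0, against 10.7%. Without Ctrl shRNA replicate 2 the first count was 6, with *Clpp* added, against 20.3%, and 0 were lower, against 17.3%. For a single gene, the two-sided exact permutation test gave p = 0.1 for each of those 5 genes, the smallest that 3 libraries against 3 allow. The median log2 fold change of the 10 genes was 0.11, beside -0.01 over all genes tested, and without that control 0.10 beside -0.02. *Hspd1* and *Hspa9* stood at percentiles 91.0 and 90.7 of the log2 fold changes of all genes tested, *Afg3l2* at 82.8 and *Hspe1* at 4.31. Without Ctrl shRNA replicate 2 these percentiles were 90.3, 90.4 and 83.8, whereas that of *Hspe1* was 25.5.

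**Figure D2:**
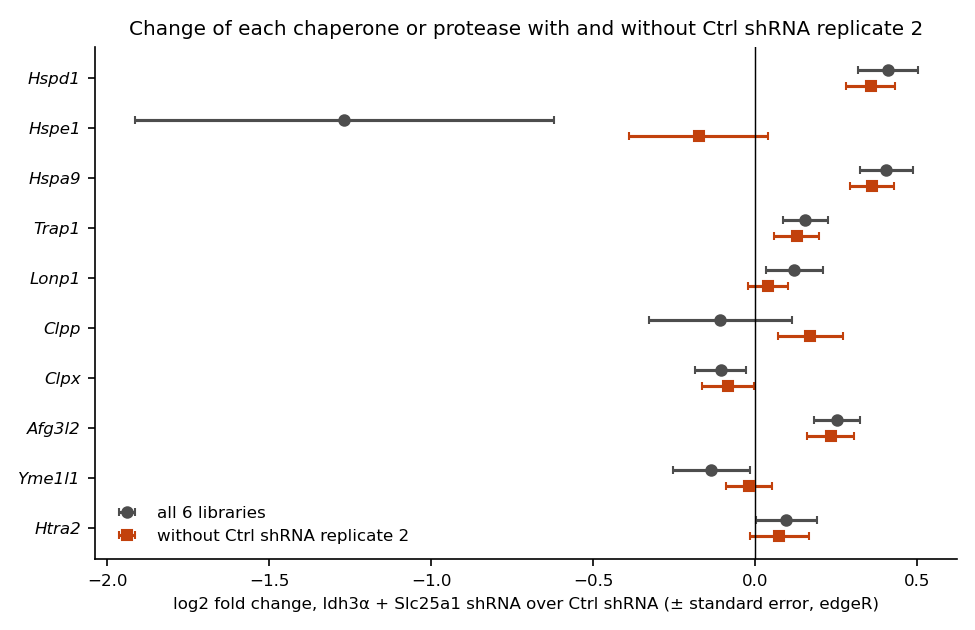
Log2 fold change of each gene, knockdown over control, from edgeR with all 6 libraries (circles) and without Ctrl shRNA replicate 2 (squares), with bars of 1 standard error. *Hspd1* and *Hspa9* lie between 0.36 and 0.41 in both fits, *Hspe1* moves from -1.27 to -0.17, and *Clpp* crosses 0.

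The genes that depended on Ctrl shRNA replicate 2 included the shortest of the 10. *Clpp* (1223 bases) and *Hspe1* (1474 bases) are under 2 kb, and the other 8 are between 2573 and 8009 bases. In Ctrl shRNA replicate 2, the log2 level minus the mean of the other controls was 2.20 for *Hspe1* and 0.71 for *Clpp*. For the other 8 genes it ran from -0.22 (*Lonp1*) to 0.35 (*Yme1l1*, the longest). Over all genes tested, the difference was taken with a prior count of 2, an offset not used for the 10 genes. Its median was 0.90 for the 1423 genes under 1 kb and 0.29 for the 2000 genes from 1 to 2 kb. It was -0.01 for the 4538 genes from 2 to 4 kb and -0.12 for the 7346 longer genes. *Hspe1* and *Clpp* were thus above the median of their length class, and *Yme1l1* above that of the longest class. *Hspe1* was also above the upper decile of its class (1.93). *Clpp* was below that decile, and *Yme1l1* below that of the longest class (0.63). The part of gene length in these differences was not tested.

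**Figure D3:**
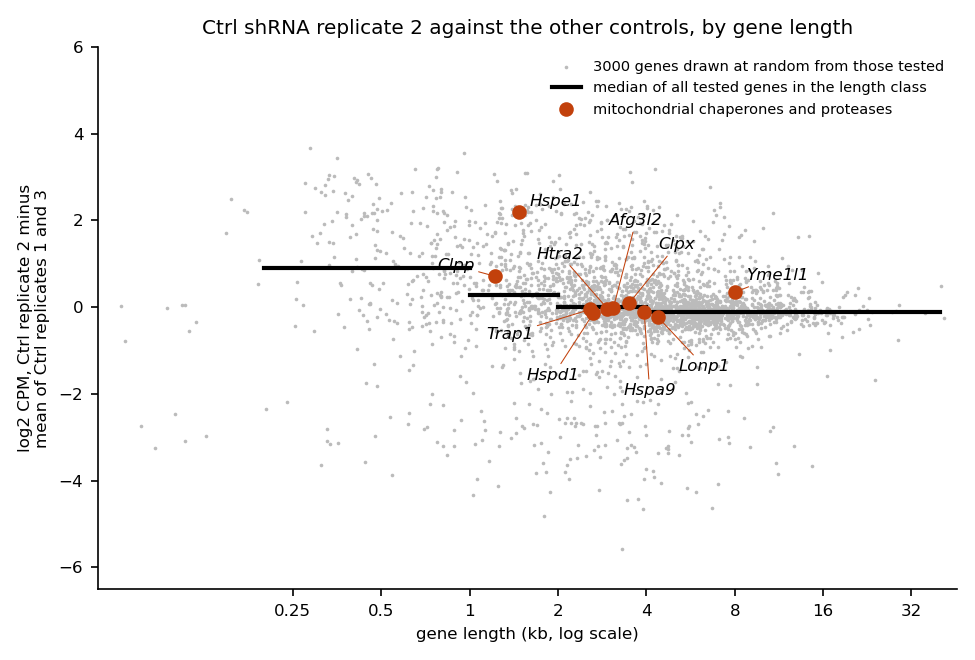
Gene length in kb (log scale) against the log2 CPM of Ctrl shRNA replicate 2 minus the mean of Ctrl shRNA replicates 1 and 3. Grey points are 3000 genes drawn at random from those tested, black bars are the median of all tested genes in each length class (0.90, 0.29, -0.01 and -0.12 from short to long) and orange points are the 10 genes, of which *Hspe1* (2.20) and *Clpp* (0.71) are the highest. Grey points and black bars use a prior count of 2, which the orange points do not.

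Levels were compared between genes only as FPKM, which divides the counts by gene length. In the knockdown cells, the order of the mean levels began with *Hspd1* (129 ± 7.84 FPKM), *Hspa9* (84.8 ± 2.91), *Hspe1* (74.7 ± 12.8), *Trap1* (42.3 ± 2.03) and *Lonp1* (40.6 ± 0.462). It went on with *Htra2* (25.2 ± 2.65 FPKM), *Afg3l2* (23.3 ± 1.16), *Clpp* (20.7 ± 1.83), *Yme1l1* (19.4 ± 0.522) and *Clpx* (12.0 ± 0.384), each with SD and n = 3. Neighbours whose libraries overlapped were *Hspa9* and *Hspe1*, *Trap1* and *Lonp1*, and each step from *Htra2* to *Yme1l1*. The chaperones thus stood above the proteases, apart from the overlap of *Trap1* with *Lonp1*. In the controls *Hspe1* had the highest mean, 179 ± 166 FPKM, but its libraries at 61.4, 369 and 107 FPKM overlapped those of *Hspd1* (96.8 ± 6.66), which was first once Ctrl shRNA replicate 2 was left out. *Hspa9* (64.0 ± 3.44 FPKM) came next, and *Clpx* (12.9 ± 0.734) was again the lowest.

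Partners of one complex or pathway were also compared within each library, where library scaling cancels. The ratio of *Hspa9* to *Hspd1* in FPKM was 0.687, 0.671 and 0.630 in the controls and 0.678, 0.636 and 0.666 in the knockdown replicates. It hardly moved in any library, Ctrl shRNA replicate 2 included (log2 difference -0.00, two-sided exact permutation test, p = 0.9). The ratio of *Yme1l1* to *Afg3l2*, the proteases on either face of the inner membrane, was 0.943, 1.29 and 1.05 in the controls and 0.814, 0.864 and 0.831 in the knockdown replicates. Every knockdown library was below every control, with a log2 difference of -0.38 and of -0.25 without Ctrl shRNA replicate 2 (two-sided exact permutation test, p = 0.1, adjusted p = 0.4 over the 4 ratios). This p is the smallest the design allows.

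The ratio of *Hspd1* to *Hspe1*, barrel to lid, was 1.59, 0.244 and 0.962 in the controls and 1.53, 2.29 and 1.49 in the knockdown replicates. The groups overlapped (log2 difference 1.27, and 0.49 without Ctrl shRNA replicate 2, two-sided exact permutation test, p = 0.3 and 0.5). The ratio of *Clpx* to *Clpp* was 0.699, 0.442 and 0.681 in the controls and 0.507, 0.605 and 0.635 in the knockdown replicates. Its log2 difference was -0.04 with all libraries (two-sided exact permutation test, p = 0.9). Without Ctrl shRNA replicate 2 it was -0.25, with every knockdown library below the remaining controls (exact permutation test, p = 0.2).

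**Figure D4:**
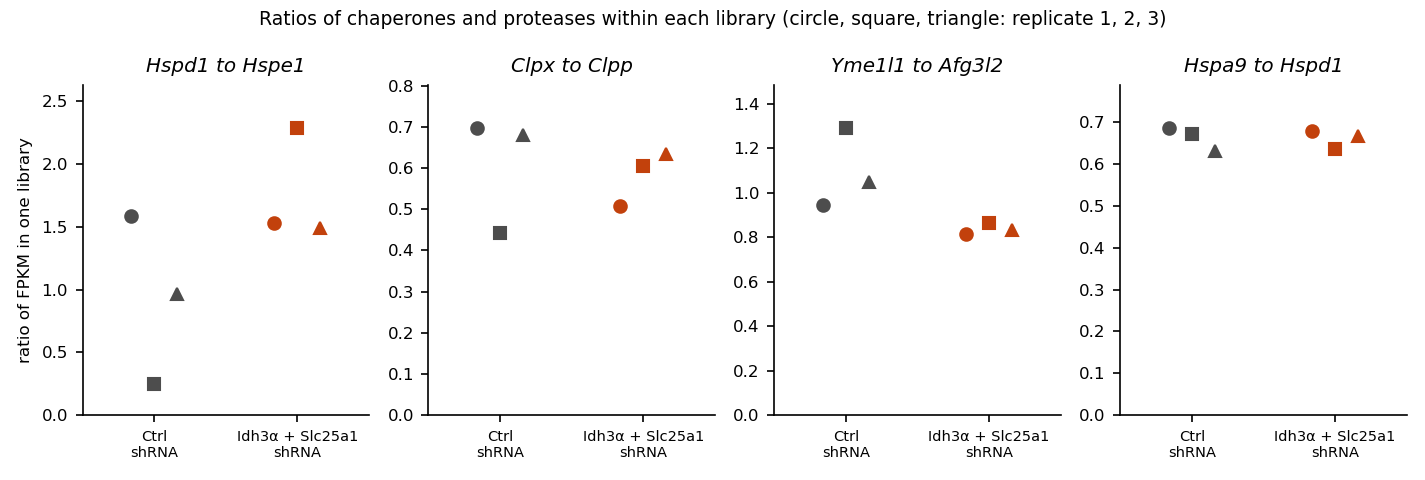
FPKM ratios of 4 gene pairs within each library, with each vertical axis starting at 0 and the replicates as circle, square and triangle. The *Hspa9* to *Hspd1* ratio stays between 0.630 and 0.687 in all 6 libraries, the *Yme1l1* to *Afg3l2* ratio is lower in each knockdown library, and the *Hspd1* to *Hspe1* ratio is set apart in Ctrl shRNA replicate 2 (0.244).

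The wider machinery was described with 6 lists of 95 genes, of which 94 were tested. With all libraries edgeR called 0 of them in either direction (13 higher and 8 lower at an unadjusted p under 0.05, against 7.47% and 6.65% of all genes tested), and DESeq2 called 3 higher and 1 lower, against 1.55% and 0.958%. Without Ctrl shRNA replicate 2 edgeR called 3 higher and 1 lower, against 1.11% and 0.675%, and DESeq2 13 and 3, against 3.93% and 2.65%. With quality weights, which keep all libraries, limma voom called 14 higher and 7 lower, against 8.67% and 6.34%. The counts of each list below are read beside the same shares. The medians of the lists are read beside -0.01 for all genes tested, or -0.02 without Ctrl shRNA replicate 2. Among 15 partners of the chaperones (median log2 fold change -0.07, and 0.03 without that control), 1 was called higher by edgeR without it. Quality weights gave 1 higher and 2 lower (*Dnajc15* and *Dnajc19*), and DESeq2 without that control gave 1 and 1 (*Dnajc15* lower). The gene called higher in each was *Atad3a*, an inner membrane ATPase tied to mitochondrial DNA and membrane contacts, at 59.5, 57.7 and 53.5 CPM across the controls against 78.4, 75.9 and 73.9 CPM across the knockdown libraries. The groups were well apart, with a log2 fold change of 0.42 (adjusted p = 0.178 in edgeR, and 0.0357 without Ctrl shRNA replicate 2). The lowest value in this list was that of *Dnajc19*, a short co-chaperone of the import motor, at -1.86 (adjusted p = 0.348, and -0.70, adjusted p = 0.181, without Ctrl shRNA replicate 2), with Ctrl shRNA replicate 2 at 130 CPM and the other libraries at 13.4 to 35.9 CPM.

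Among 14 other mitochondrial proteases, edgeR called 0 with or without Ctrl shRNA replicate 2 (median 0.07 and 0.02). At an unadjusted p under 0.05 there were 1 higher and 2 lower, and DESeq2 also called 0 with all libraries. *Pitrm1*, which degrades cleaved targeting peptides, had the highest value at 0.31 (adjusted p = 0.278 in edgeR, and 0.26, adjusted p = 0.117, without Ctrl shRNA replicate 2), with 90.9 to 101 CPM in the controls and 112 to 125 CPM in the knockdown. It was the 1 gene of this list called higher with quality weights (adjusted p = 0.0162) and by DESeq2 without that control (adjusted p = 0.0349). Quality weights also called 1 lower, *Immp2l*, an inner membrane peptidase subunit (adjusted p = 0.0165). *Immp1l*, an inner membrane peptidase, had the lowest at -1.90 (adjusted p = 0.352, and -0.47, adjusted p = 0.190, without Ctrl shRNA replicate 2), with Ctrl shRNA replicate 2 at 144 CPM and the others at 13.1 to 25.9 CPM. *Oma1*, the stress-activated protease of the inner membrane, was at 6.12 to 8.09 CPM in the controls and 6.98 to 7.35 CPM in the knockdown (log2 fold change -0.02, adjusted p = 0.954, and -0.14, adjusted p = 0.573, without Ctrl shRNA replicate 2).

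The 17 genes of the import machinery, 16 of them tested, had a median of -0.53 with all libraries and of -0.06 without Ctrl shRNA replicate 2. *Tomm40*, the channel through which nearly all imported proteins pass, was among the 3 tested genes with a log2 fold change above 0 with all libraries. It was at 50.2, 35.7 and 55.6 CPM across the controls against 72.9, 77.5 and 72.1 CPM across the knockdown libraries. Its groups did not overlap, with a log2 fold change of 0.65 (adjusted p = 0.276 in edgeR) and 0.48 without Ctrl shRNA replicate 2 (adjusted p = 0.0229), the single call of the list in edgeR, with quality weights and in DESeq2 without that control. *Tomm7*, a small subunit of the same complex, had the lowest value at -2.19 (adjusted p = 0.345, and -1.20, adjusted p = 0.220, without that control), with Ctrl shRNA replicate 2 at 459 CPM and the others at 21.2 to 170 CPM.

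Of 13 regulators of the stress responses, edgeR called 0 with or without Ctrl shRNA replicate 2 (median -0.13 and -0.09). At an unadjusted p under 0.05, 1 was higher and 2 were lower with all libraries, and DESeq2 called 0. Quality weights gave 1 higher (*Hsf1*) and 2 lower (*Cebpb* and *Sirt3*), and DESeq2 without that control gave 1 higher (*Hsf1*) and 1 lower (*Cebpb*). *Atf4*, the main factor of the integrated stress response, was at 201, 240 and 208 CPM across the controls against 198, 200 and 183 CPM across the knockdown libraries (log2 fold change -0.16, adjusted p = 0.421 in edgeR, and -0.09, adjusted p = 0.505, without Ctrl shRNA replicate 2). *Atf5*, a factor of the mitochondrial unfolded protein response, was at 13.1 to 15.9 CPM in the controls and 11.9 to 14.1 CPM in the knockdown (-0.14, adjusted p = 0.561, and -0.22, adjusted p = 0.324, without it). *Ddit3* (CHOP) was at 12.8 to 22.4 CPM and 10.8 to 13.1 CPM (-0.44, adjusted p = 0.387), read from the larger of its 2 rows. The 22.4 CPM was that of Ctrl shRNA replicate 2, without which the log2 fold change was -0.16 (adjusted p = 0.478). After TMM scaling each of the 3 thus had a log2 fold change below 0 in both edgeR fits, though none passed the test.

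*Hsf1*, which encodes a heat shock factor, had the highest value of the regulators in edgeR with all libraries. A link to the element shown above was not tested. It was at 56.8, 49.5 and 46.1 CPM across the controls against 66.1, 70.5 and 62.9 CPM across the knockdown libraries. Its groups did not overlap, with a log2 fold change of 0.39 (adjusted p = 0.288 in edgeR, and 0.36, adjusted p = 0.121, without Ctrl shRNA replicate 2). The adjusted p was 0.0107 with quality weights and 0.0253 in DESeq2 without that control. The lowest was *Ubl5*, a small ubiquitin-like protein, at -2.06 (adjusted p = 0.352, and -0.59, adjusted p = 0.217, without Ctrl shRNA replicate 2), with Ctrl shRNA replicate 2 at 838 CPM and the others at 67.5 to 172 CPM.

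Of 20 cytosolic heat shock genes, edgeR called 0 with all libraries and 1 without Ctrl shRNA replicate 2, and DESeq2 with all libraries also called 1 (median 0.01 with all libraries and 0.17 without it). Quality weights gave 7 higher and 1 lower (*Hspa1b*), and DESeq2 without that control 6 higher and 0 lower. Control and knockdown values did not overlap, with the knockdown higher, for 5 of the 20 with all libraries, against 14.7% of all genes tested, and for 12 of the 20 without that control, against 20.3%. With the knockdown lower there were 0 and 1, against 10.7% and 17.3%. In each of the other 5 lists, 2 to 4 genes were higher without overlap and 0 to 3 lower with all libraries, and 3 to 6 higher and 0 to 4 lower without that control, the import machinery having the fewest (2 and 0, then 3 and 0, of 16). *Hsph1*, an HSP110 that releases nucleotide from HSP70, was at 122, 114 and 115 CPM across the controls against 170, 175 and 164 CPM across the knockdown libraries. The groups were far apart, with a log2 fold change of 0.54 (adjusted p = 0.110 in edgeR) and 0.51 without that control (adjusted p = 0.0142). The inducible *Hspa1a* had the lowest value at -0.57 (adjusted p = 0.485, and -0.32, adjusted p = 0.660, without that control) and a level of 0.809 to 2.73 CPM in all libraries.

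Of 16 chaperones and related genes of the endoplasmic reticulum, edgeR called 1 lower without Ctrl shRNA replicate 2 (median 0.03, and 0.05 without it). Quality weights, and DESeq2 without that control, each gave 3 higher (*Hspa5*, *Calr* and *Hyou1*) and 1 lower (*Herpud1*). *Herpud1*, which serves the degradation of proteins from that compartment, was at 101, 119 and 107 CPM across the controls against 78.5, 79.2 and 68.3 CPM across the knockdown libraries. The groups did not overlap, with a log2 fold change of -0.53 (adjusted p = 0.180 in edgeR) and -0.47 without that control (adjusted p = 0.0312). *Hspa5* (BiP), the main chaperone there, was at 520 to 542 CPM in the controls against 636 to 655 CPM in the knockdown, a log2 fold change of 0.29 (adjusted p = 0.315 in edgeR and 0.0120 in DESeq2, and 0.27, adjusted p = 0.0789 in edgeR, without that control). *Hyou1* was highest in this list at 0.32 (adjusted p = 0.308, and 0.25, adjusted p = 0.121, without that control) and *Manf* lowest at -0.56 (adjusted p = 0.413, and -0.09, adjusted p = 0.641).

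**Figure D5:**
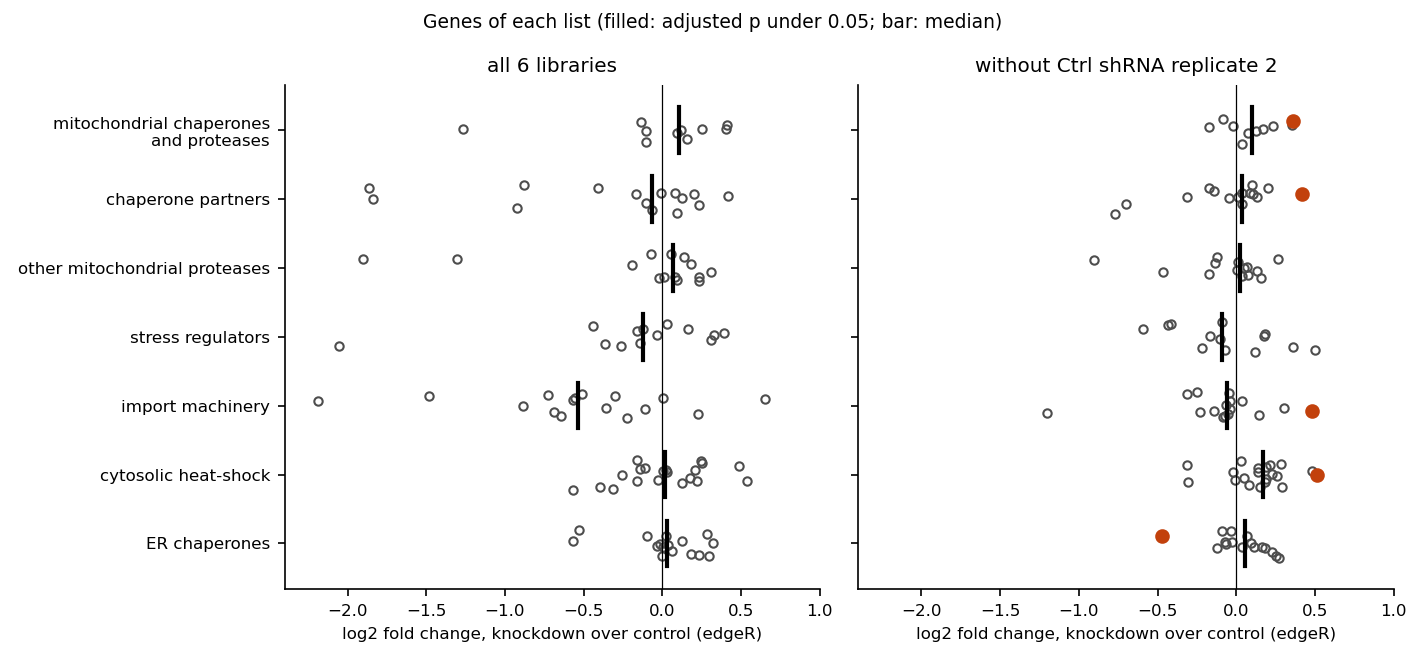
Log2 fold change, knockdown over control, of the tested genes of each list, with all 6 libraries on the left and without Ctrl shRNA replicate 2 on the right. Filled orange points passed an adjusted p of 0.05 in edgeR and black bars are medians. The import machinery moves from a median of -0.53 to -0.06, and the points past the threshold on the right are *Hspa9*, *Atad3a*, *Tomm40*, *Hsph1* and *Herpud1*.

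Transcripts of the mitochondrial genome itself were set beside these. Of 13 protein-coding genes 12 were tested and 0 were called by edgeR, with a median log2 fold change of -1.35 with all libraries and of 0.04 without Ctrl shRNA replicate 2. At an unadjusted p under 0.05 edgeR had 0 higher and 1 lower in both fits. Of all genes it had 7.47% and 6.65% with all libraries, and 1498 and 1622 of 15709 without that control. At the same p DESeq2 with all libraries had 0 higher and 6 lower, against 1195 and 1667 of 27361 genes. DESeq2 and quality weights called 0 with all libraries. DESeq2 without that control called 1 lower (*mt-Co1*), against 2.65% of the genes it gave an adjusted p. The lowest was *mt-Co3* at -2.04 (adjusted p = 0.371 in edgeR, and -0.11, adjusted p = 0.864, without it), with 118 CPM in Ctrl shRNA replicate 2 and 8.57 to 17.2 CPM in the others, and the highest *mt-Nd4l* at 0.28 (adjusted p = 0.897, and 1.41, adjusted p = 0.329, without it).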

How the data were processed

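RNA-seq of 6 MLE12 libraries was used, 3 per group, grouped by the sample labels. The authors deposited read counts per gene without normalization, and FPKM values, which equal the counts over gene length and a library size of the authors' own (0.716 to 1.08 times the total). The submitters' processing notes name HISAT2 2.0.5, StringTie 1.3.3b, featureCounts 1.5.0-p3 and mm10, without roles. Use of strand is not stated. Of 54409 genes shared with GENCODE M21, 98.3% had identical coordinates.

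Counts were filtered with filterByExpr, scaled by TMM and tested with edgeR 4.0.16 (R 4.3.3), Benjamini-Hochberg adjusted over all genes tested. DESeq2 1.42.0, limma 3.58.1 (voom with quality weights, and FPKM with a pseudocount of 1 or 0.1), other scalings, filters, a replicate block and leaving out each library were the alternatives. DESeq2 without Ctrl shRNA replicate 2 was added after seeing the data. All replicate pairs differed beyond sampling noise (chi-square per degree of freedom 5.67 to 454). Genes outside the 10 were named when called in edgeR with or without Ctrl shRNA replicate 2 or in DESeq2, or when highest or lowest of their list with all libraries; *Atf4*, *Atf5*, *Ddit3* and *Oma1* were named always. *Dnajc15*, *Immp2l*, *Cebpb*, *Sirt3*, *Hspa1b*, *Calr*, *Nkx2-1* and *mt-Co1* were named after their values were seen. The cell markers *Krt8*, *Cdh1*, *Sftpd*, *Ptprc*, *Adgre1* and *Cd68* were also named outside the rule. Pseudogenes and overlapping neighbours of the 10 were named where reads could be shared. Genes and lists were chosen with earlier results of these data known. All 6 samples' columns were used. Figures were drawn with matplotlib 3.10.9.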

Additional observations from a re-analysis of the deposited data

How the results depend on the processing

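For the 10 chaperones and proteases, 164 of 170 log2 fold changes under the alternatives kept the direction reported. The 6 that reversed were *Clpp* without Ctrl shRNA replicate 2 (0.17 in edgeR, 0.18 in DESeq2), with quality weights (0.23) and with library size only (0.13; over single libraries left out it ranged from -0.27 to 0.17), and *Clpx* and *Yme1l1* with library size only (0.074 and 0.070). Library size only moved the median of all genes to 0.16, and relative to it *Clpp*, *Clpx* and *Yme1l1* stayed negative (-0.030, -0.086 and -0.091). The number of the 10 called higher was 0 with all libraries, 1 without Ctrl shRNA replicate 2 (range over single libraries left out 0 to 1), 2 with DESeq2 with or without that library and 3 with quality weights. It was 0 under each of the other alternatives run. The adjusted p ran from 4.97e-05 to 0.675 for *Hspa9*, from 0.000385 to 0.675 for *Hspd1* and from 0.0208 to 0.775 for *Afg3l2*. *Hspe1* ran from -1.67 to -0.17 on the log2 scale and was called in none.

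Among all genes, edgeR called 9 higher and 1 lower. Leaving out 1 library gave 0 to 175 higher and 0 to 106 lower, with both upper values from leaving out Ctrl shRNA replicate 2, when the biological coefficient of variation fell from 0.263 to 0.102. Library size only gave 1 and 0, no count filter 3 lower, limma on FPKM 3 lower with either pseudocount, DESeq2 218 and 135, DESeq2 without that library 490 and 330, and quality weights 1327 and 971. In the 6 further lists, 3 genes were higher and 1 lower without that library, 3 and 1 with DESeq2, 13 and 3 with DESeq2 without it, and 14 and 7 with quality weights. *Idh3α* and *Slc25a1* passed the threshold without it (-0.60 and -0.66) and with DESeq2 (-0.84 and -0.62). The cause of these moves was not tested.

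The ratio of *Clpx* to *Clpp* ranged from -0.25 to 0.080 in log2 difference over single libraries left out, positive in 3 of the fits (0.080, 0.062 and 0.061). That of *Hspa9* to *Hspd1* ranged from -0.041 to 0.022, positive in 3 (0.022, 0.0046 and 0.022). The order of the control levels was the same with CPM per kb. Libraries of the same replicate number had correlations of -0.15, -0.09 and 0.04 in their deviations from the group mean. Ctrl shRNA replicate 2 shifts the control mean, so these values cannot decide whether the samples were paired. With the replicate number as a block, edgeR called 0 genes higher and 0 lower, of the 10 as well, and DESeq2 24 and 11, with 0 of the 10 (*Hspa9* 0.613 and *Hspd1* 0.646 in adjusted p, against calls without the block). The 10 genes had between 616 and 10998 counts per library, which sets their counting error.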
